A study of Homo sapiens with 11 samples.

Results

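Neddylation attaches NEDD8, a small protein related to ubiquitin, to other proteins, and the 10 genes described here encode its conjugation cascade: NEDD8 itself, the E1 subunits NAE1 and UBA3, the E2 enzymes UBE2M and UBE2F, and the 5 DCUN1D proteins that act as E3 co-ligases. They were selected by gene name, and all 10 were found among the 58735 genes listed and passed the filter on low counts, which left 18368 genes. Their mRNA was measured by RNA-seq in HEK293T, a line derived from human embryonic kidney, in 11 libraries: 3 of control cells, 3 after knockdown of NAE1 with 50 nM siRNA (siNAE1), 3 after knockdown of UBE2M with 70 nM (siUBE2M) and 2 after knockdown of URM1 with 60 nM (siURM1), the last gene encoding a ubiquitin-like modifier that also carries sulfur in tRNA thiolation. Cells carried no other stated treatment and were harvested 48 h after lipid transfection. The control is labelled as a control siRNA, with no dose given, and the methods of the study name a non-targeting siRNA as negative control, whereas its supplement gives the control the code HKWT without saying whether those cells were transfected. A single siRNA product was used for each gene, and libraries are labelled as biological replicates of this single line, so the spread between them covers what those labels mean and nothing beyond this line.

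In neddylation, the NAE1/UBA3 heterodimer activates NEDD8 with ATP and passes it to the active-site cysteine of an E2. UBE2M works with the RING protein RBX1 on most cullins and UBE2F with RBX2 on CUL5, while DCUN1D proteins bind the E2 and the cullin and speed the transfer. Cullins that carry NEDD8 are the active form of the cullin-RING ubiquitin ligases, and removal of NEDD8 by the COP9 signalosome switches them off. The knockdowns addressed whether the E1 and E2 of this cascade share gene expression changes with URM1.

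NEDD8 was called higher in all 3 knockdowns by the test described further on, and UBE2F and DCUN1D4 were called lower in both siNAE1 and siUBE2M, so the promoters of these 3 genes are shown. They are the 250 bases before the annotated start in RefSeq (GRCh38.p14), at chr14:24232368-24232617 on the minus strand for NEDD8, chr2:237966764-237967013 on the plus strand for UBE2F and chr4:51842903-51843152 on the plus strand for DCUN1D4, which has another listed start. Each is written 5′ to 3′ on the strand of its gene, and capitals mark the CCAAT box (CCAAT), the ETS motif (CCGGAAG) and the core of the cAMP response element (CGTCA) on either strand.
NEDD8: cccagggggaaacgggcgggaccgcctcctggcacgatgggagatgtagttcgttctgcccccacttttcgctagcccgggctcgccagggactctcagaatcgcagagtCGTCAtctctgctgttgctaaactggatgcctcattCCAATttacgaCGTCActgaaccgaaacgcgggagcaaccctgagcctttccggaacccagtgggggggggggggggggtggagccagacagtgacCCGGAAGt
UBE2F: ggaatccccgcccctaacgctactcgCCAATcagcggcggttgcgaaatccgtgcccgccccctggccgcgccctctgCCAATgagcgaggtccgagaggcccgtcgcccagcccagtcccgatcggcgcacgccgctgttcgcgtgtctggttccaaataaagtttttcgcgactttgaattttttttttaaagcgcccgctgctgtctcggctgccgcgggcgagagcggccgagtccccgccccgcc
DCUN1D4: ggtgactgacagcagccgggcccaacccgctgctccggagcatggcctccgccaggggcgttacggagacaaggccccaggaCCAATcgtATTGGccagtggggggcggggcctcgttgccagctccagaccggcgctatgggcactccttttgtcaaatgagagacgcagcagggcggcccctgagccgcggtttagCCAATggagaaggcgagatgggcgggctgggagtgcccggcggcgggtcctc
The NEDD8 promoter held 1 CCAAT box, 2 cAMP response element cores and 1 ETS motif, the last ending 2 bases before the start. UBE2F held 2 CCAAT boxes and DCUN1D4 held 3, and neither held the other motifs in capitals. No matches overlapped in these 3 promoters. The deposited genes begin within the sequences shown, 87, 187 and 153 bases before the RefSeq start for NEDD8, UBE2F and DCUN1D4. All 10 genes matched a RefSeq promoter, though that of NAE1 starts 42280 bases from the 5′ end of the deposited gene. A CCAAT box stood in 5 of 10 (NEDD8, NAE1, UBE2F, DCUN1D1 and DCUN1D4), against 32.0% of 35116 promoters of the same length. ETS motifs stood in 3 of 10 (8.52% of all promoters), cAMP response element cores in 4 of 10 (21.2%) and GC boxes (GGGCGG) in 8 of 10 (42.6%). The TATA box (TATAAA, 10.7%) and the ATF4 motif (TGATGNAA, 3.14%) stood in 0 of 10. Both strands were searched, and these matches describe letters and not binding.

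Total counts per library ranged from 11733163 to 16321391, with the lowest in siNAE1. The labelled cell line was checked by markers: VIM, NEFM, NEFL, LIN28B, CDH2 and PAX2 were all detected in every library, while liver genes were at most 0.249 FPKM and blood genes at most 0.0238 FPKM. The summed FPKM of the 6 HEK293T markers was 93.4 to 104 in control, 138 to 148 in siNAE1, 116 to 135 in siUBE2M and 148 to 156 in siURM1. It moved with the groups compared here, and its part in the results was not tested. Levels of single genes are given as CPM, counts scaled to library size after TMM normalization, which do not allow comparison between genes, and as FPKM, which are per length.

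The targeted genes were lowest in their own libraries. NAE1 was at 41.6, 42.6 and 35.2 CPM in siNAE1, against 98.9, 109.2 and 99.0 in control, a log2 fold change of -1.36 ± 0.08 (SE; edgeR quasi-likelihood test, Benjamini-Hochberg adjusted p = 9.23e-16). UBE2M was at 15.6, 15.6 and 19.1 CPM in siUBE2M, against 262.6, 267.7 and 263.9 in control, a log2 fold change of -3.98 ± 0.08 (adjusted p = 1.43e-27). URM1 was at 15.2 and 15.5 CPM in siURM1, against 54.4, 51.0 and 55.4 in control, a log2 fold change of -1.80 ± 0.10 (adjusted p = 2.6e-15). No library overlapped between the targeted group and control for its gene. URM1 was 0.28 higher on the log2 scale in siNAE1 (adjusted p = 0.0032) and not called in siUBE2M (-0.16, adjusted p = 0.096). These values check the labels and are counted apart from the other genes.

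A gene was called at an adjusted p under 0.05 over all 18368 genes and was a differentially expressed gene (DEG) when the absolute log2 fold change was also at least 1. Against control, 6 of 9 genes not targeted were called in siNAE1 (3 higher, 3 lower), 7 of 9 in siUBE2M (4 higher, 3 lower) and 6 of 10 in siURM1 (4 higher, 2 lower). The siNAE1 count was 3 (1 higher, 2 lower) without control replicate 1 or siNAE1 replicate 1, and 4 (1 higher, 3 lower) with libraries scaled by total counts. The siURM1 count under that scaling was 7 (3 higher, 4 lower), of which 5 were also called with TMM. The background was wide: 54.7% of all tested genes were called in siNAE1 (27.6% higher, 27.1% lower), 45.3% in siUBE2M (22.7% higher, 22.6% lower) and 41.6% in siURM1 (20.8% higher, 20.8% lower). The shares among the 10 genes were not tested against this background. None of the genes not targeted was a DEG in any comparison, while DEGs made up 13.9%, 7.11% and 7.62% of all genes in siNAE1, siUBE2M and siURM1. Their median log2 fold change was 0.05, 0.16 and 0.03 in the same order, against medians of -0.0021, 0.00747 and -0.0209 over all genes. The 3 comparisons share the same control libraries, so agreement between them is not independent.

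**Figure D1:**
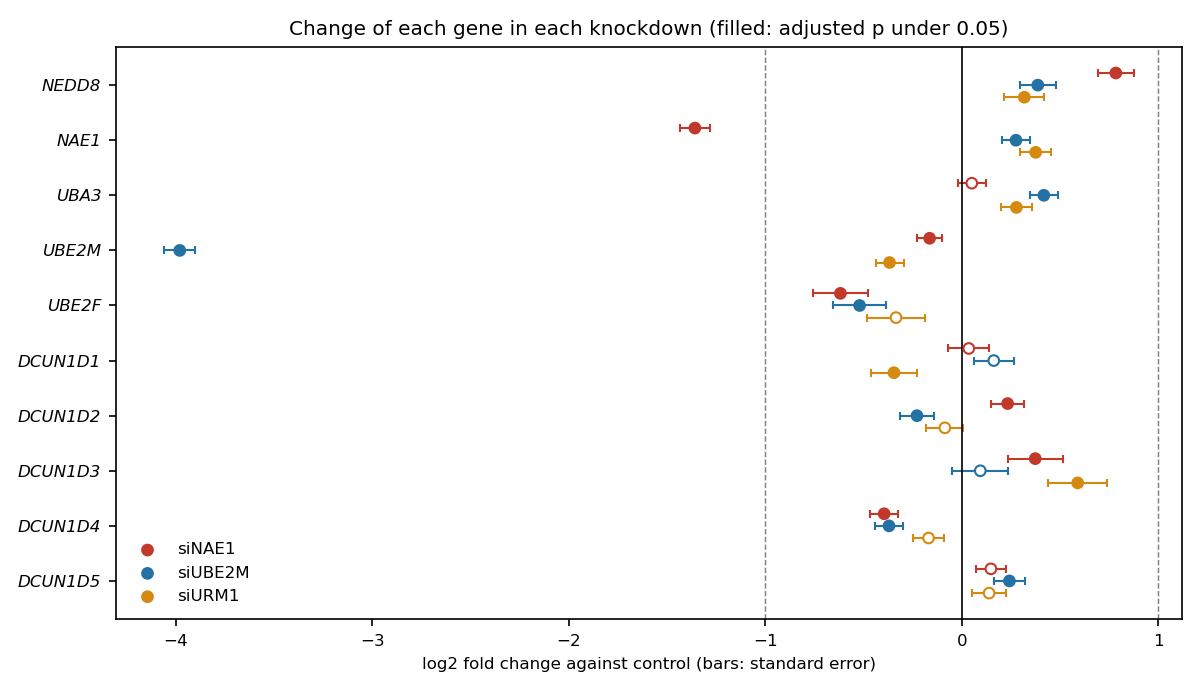
Log2 fold change against control (horizontal axis) of each of the 10 genes in siNAE1, siUBE2M and siURM1, with bars for the standard error and filled points for an adjusted p under 0.05. Apart from the targeted NAE1 (-1.36) and UBE2M (-3.98), every point lies between the dashed lines at a log2 fold change of -1 and 1, and NEDD8 is filled and above 0 in all 3 knockdowns.

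NEDD8, the modifier itself, was, among the 10 cascade genes, the one targeted by no siRNA that was called in the same direction in all 3 knockdowns. It was at 34.05, 35.2 and 33.7 CPM in control, with the least spread of the groups. In siNAE1 it was at 53.0, 64.05 and 60.2 CPM, in siUBE2M at 43.4, 42.5 and 48.8, and in siURM1 at 38.1 and 47.65. Every knockdown library lay above every control library, and every siNAE1 library lay above those of the other knockdowns. Its log2 fold change was 0.78 ± 0.09 in siNAE1 (adjusted p = 7.64e-09), 0.39 ± 0.09 in siUBE2M (adjusted p = 0.00074) and 0.32 ± 0.10 in siURM1 (adjusted p = 0.0111). In bulk RNA, more cells with a transcript and more of it per cell cannot be told apart. Of all tested genes, 24.6% changed more than NEDD8 in siNAE1, 43.9% in siUBE2M and 53.0% in siURM1. The siURM1 libraries stood apart from each other, and without siURM1 replicate 2 the change was 0.154 with an adjusted p of 0.37. With libraries scaled by total counts it was 0.229 with an adjusted p of 0.064. The difference between siNAE1 and siUBE2M was itself called, at 0.40 ± 0.09 (adjusted p = 0.000458), and that between siNAE1 and siURM1 was 0.47 ± 0.10 (adjusted p = 0.000366), which was 0.308 with an adjusted p of 0.055 without siURM1 replicate 1.

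NEDD8 (14, 24216852 to 24232454, minus strand in the deposited table) overlaps the readthrough gene NEDD8-MDP1 on the same strand. In GENCODE v44, 272 of the 616 bases (44.2%) of its MANE Select transcript, the representative transcript agreed between annotations, are also exonic in that gene. NEDD8-MDP1 was listed at 0 counts in all 11 libraries, and how fragments on shared bases were assigned is not stated, so the counts of NEDD8 may leave out such fragments. Of the other cascade genes and the genes of both lists described at the end, the change of RBX1, the RING protein that works with UBE2M, was the closest to that of NEDD8 over the 3 knockdowns, with a Euclidean distance of 0.263 between their log2 fold changes against a median of 1.14 over 68 genes. RBX1 rose by 0.77 in siNAE1, 0.22 in siUBE2M and 0.52 in siURM1 on the log2 scale. The nearest gene lies below the median distance by construction, here and for UBA3 and UBE2F below, so these distances do not test a shared response.

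NAE1, the regulatory subunit of the E1, rose in both knockdowns that did not target it. It was at 128.3, 123.1 and 120.6 CPM in siUBE2M and at 126.3 and 139.6 in siURM1, all above the control range of 98.9 to 109.2. NAE1 changed by 0.28 ± 0.07 on the log2 scale in siUBE2M (adjusted p = 0.00189) and 0.38 ± 0.08 in siURM1 (adjusted p = 0.000223), and these did not differ from each other by the test (-0.10, 95% interval -0.261 to 0.0604).

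UBA3, the catalytic subunit that holds the active cysteine, was not called when its partner was knocked down. It was at 73.2, 78.3 and 74.9 CPM in control and at 75.7, 85.4 and 73.2 in siNAE1, and these groups overlapped. The log2 fold change was 0.05 ± 0.07 (adjusted p = 0.564), with a 95% interval of -0.0934 to 0.196. In siUBE2M it was at 105.2, 99.3 and 98.0 CPM and in siURM1 at 92.4 and 90.7, all above control. The log2 fold changes were 0.42 ± 0.07 (adjusted p = 9.72e-06) and 0.28 ± 0.08 (adjusted p = 0.00418). UBA3 was thus lower in siNAE1 than in siUBE2M, by a called difference of -0.37 ± 0.07 (adjusted p = 6.92e-05). Against siURM1 the difference was -0.23 ± 0.08 (adjusted p = 0.0211), a call lost without siNAE1 replicate 1 or 3 or either siURM1 library. The gene closest to UBA3 in its 3 changes was DCUN1D5, at a distance of 0.244 against a median of 0.777. The ratio of UBA3 to NAE1 in FPKM was 0.865 ± 0.0226 (SD, n = 3) in control, 2.31 ± 0.159 in siNAE1 (n = 3), 0.953 ± 0.00751 in siUBE2M (n = 3) and 0.809 ± 0.0679 in siURM1 (n = 2). The siNAE1 ratio follows from the targeted gene, and the ratios were not tested.

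UBE2M, the main E2, was called lower in both other knockdowns, but only the decrease in siURM1 held whichever library was left out. It was at 229.7, 233.8 and 245.9 CPM in siNAE1, below the narrow control range of 262.6 to 267.7, and the log2 fold change was -0.16 ± 0.06 (adjusted p = 0.0289). That call was lost without any 1 of the control libraries or without siNAE1 replicate 1 or 2, with adjusted p values of 0.055 to 0.097. In siURM1 it was at 214.9 and 195.5 CPM, and the log2 fold change was -0.37 ± 0.07 (adjusted p = 8.94e-05). The difference between siNAE1 and siURM1 was 0.20 ± 0.07 (adjusted p = 0.023), a call lost without siNAE1 replicate 3 (adjusted p = 0.069) or siURM1 replicate 2 (0.28), with the replicate block (0.175, adjusted p = 0.061) and with limma on log2(FPKM + 1) (0.196, adjusted p = 0.17). The processed pseudogene UBE2MP1, which has 1 to 26 counts per library, fell with the targeted gene in siUBE2M, by 3.15 on the log2 scale (adjusted p = 1.3e-05), and fragments of such a copy cannot be told apart from those of UBE2M where the sequences are the same.

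UBE2F, the E2 that serves CUL5, was lower in the knockdowns of either other enzyme of the cascade. It was at 12.9, 16.7 and 14.5 CPM in control, from 214 to 271 counts, and was among the least covered of the 10 genes. In siNAE1 it was at 10.5, 7.62 and 10.8 CPM, in siUBE2M at 10.3, 9.51 and 11.0, and in siURM1 at 11.6 and 11.7. No knockdown library reached the lowest control library. UBE2F had log2 fold changes of -0.62 ± 0.14 in siNAE1 (adjusted p = 0.000346), -0.52 ± 0.14 in siUBE2M (adjusted p = 0.00218) and -0.33 ± 0.15 in siURM1, which was not called (adjusted p = 0.0738, 95% interval -0.64 to -0.0283). The siURM1 value passed the threshold without control replicate 1 (-0.411, adjusted p = 0.045), with total count scaling (-0.423, adjusted p = 0.025), and with the counts of readthrough genes and pseudogenes added to UBE2F (-0.447, adjusted p = 0.0054). None of the 3 differences between knockdowns was called for UBE2F, so the missed call in siURM1 does not show a different response. UBE2F shares 32.2% of the bases of its MANE Select transcript with the readthrough gene UBE2F-SCLY, listed at 0 to 9 counts. The pseudogene UBE2FP1 (10 to 48 counts) fell by 1.74 in siURM1 on the log2 scale (adjusted p = 0.00094). Another, UBE2FP3 (11 to 51 counts), changed by -0.662, -0.606 and -0.437 in siNAE1, siUBE2M and siURM1 and was not called (adjusted p of 0.083, 0.12 and 0.34). GLMN, which encodes glomulin, an RBX1-binding inhibitor of cullin-RING ligases, had the changes closest to those of UBE2F (distance 0.302, median 0.939), at -0.33, -0.44 and -0.27 on the log2 scale in siNAE1, siUBE2M and siURM1.

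UBE2M held most of the E2 sum per length in all 4 groups, and least of it where it was targeted. The FPKM of both E2 enzymes summed to 147 ± 3.06 in control, 130 ± 4.73 in siNAE1, 11.4 ± 1.27 in siUBE2M (SD, n = 3 each) and 114 ± 7.07 in siURM1 (n = 2). UBE2F held 2.34% ± 0.271 of that sum in control, 1.73% ± 0.297 in siNAE1, 21.0% ± 1.16 in siUBE2M and 2.4% ± 0.17 in siURM1. The larger share in siUBE2M came with a lower UBE2F level, since the FPKM of UBE2F was 2.39 ± 0.178 there against 3.44 ± 0.456 in control.

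**Figure D2:**
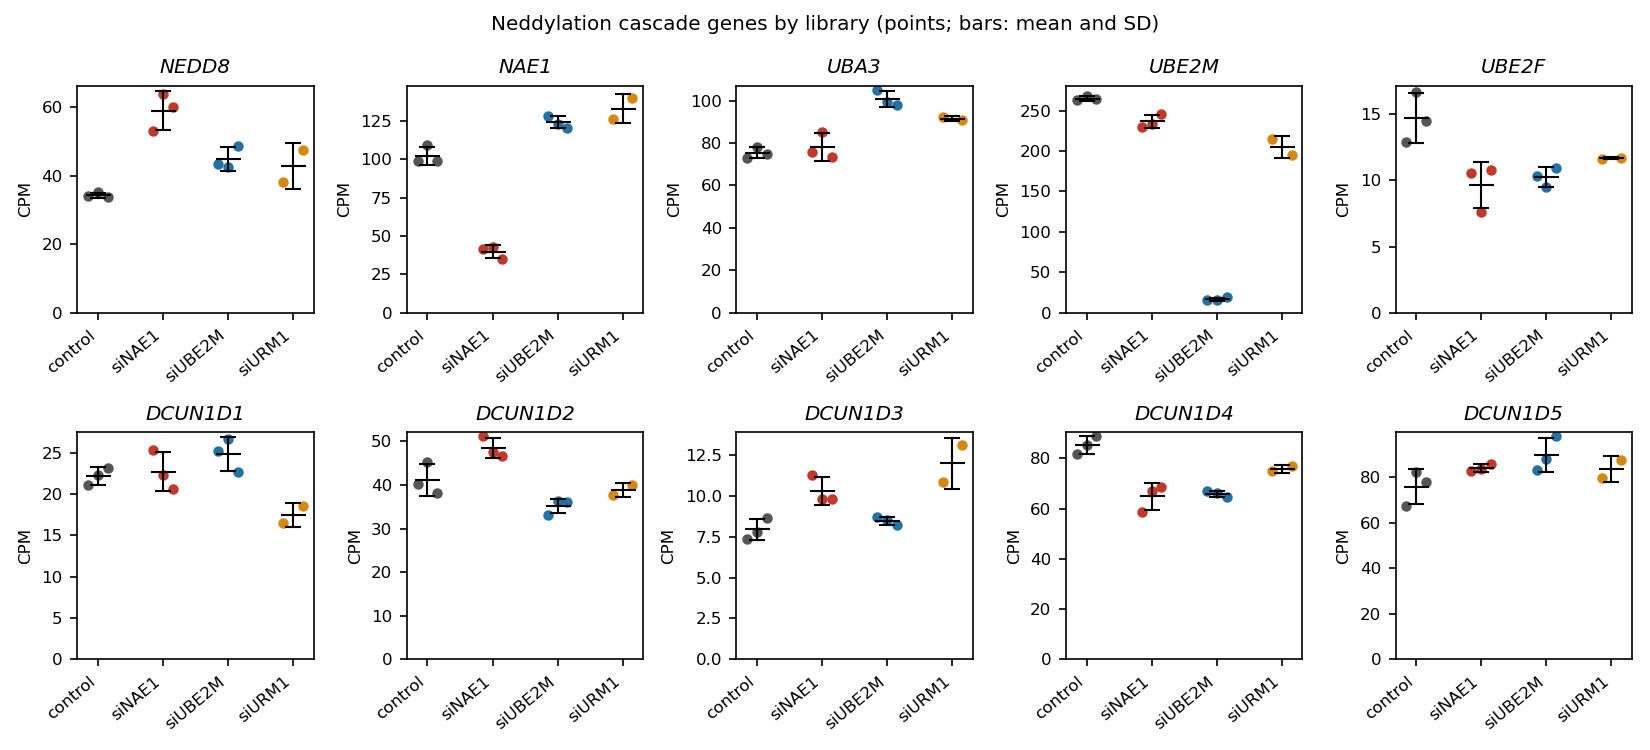
CPM (vertical axes, from 0) of the 10 genes in each library of the 4 groups, with horizontal marks for the group mean and bars for the SD (n = 3, 3, 3 and 2). NEDD8 lies above control in every knockdown library, UBE2F lies below control in every one, and the targeted NAE1 and UBE2M are lowest in their own groups.

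The 5 DCUN1D genes, E3 co-ligases that differ in their ends and in where they reside in the cell, changed in different directions. DCUN1D1, known as DCN1 and best studied as the partner of UBE2M, was at 21.1, 22.3 and 23.2 CPM in control. It overlapped control in siNAE1 (25.3, 22.3 and 20.5 CPM) and in siUBE2M (25.2, 26.7 and 22.6 CPM). In siURM1 it was at 16.5 and 18.5 CPM, below every other library. The log2 fold change in siURM1 was -0.34 ± 0.12 (adjusted p = 0.019), a call lost without siURM1 replicate 1 (-0.259, adjusted p = 0.21) or control replicate 3 (-0.302, adjusted p = 0.068). In siNAE1 it was 0.04 ± 0.10 (adjusted p = 0.792) and in siUBE2M 0.16 ± 0.10 (adjusted p = 0.2). DCUN1D1 was lower in siURM1 than in siUBE2M by a called difference, with siUBE2M higher by 0.51 ± 0.12 (adjusted p = 0.00103), and this held whichever library was left out. It was also higher in siNAE1 than in siURM1, by 0.38 ± 0.12 (adjusted p = 0.0117), a call lost without siNAE1 replicate 1 (adjusted p = 0.072) or siURM1 replicate 1 (0.16). That call was also lost with limma on log2(FPKM + 1) (0.257, adjusted p = 0.095) and on log2(FPKM + 0.1) (0.351, adjusted p = 0.077).

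DCUN1D2 was called in opposite directions in the E1 and E2 knockdowns. It was at 40.2, 45.3 and 38.2 CPM in control, 51.2, 47.5 and 46.7 in siNAE1, 33.2, 36.3 and 36.1 in siUBE2M, and 37.7 and 40.04 in siURM1. The siNAE1 libraries lay above control, the siUBE2M libraries below, and siURM1 overlapped control. Its log2 fold change was 0.23 ± 0.08 in siNAE1 (adjusted p = 0.0179), -0.23 ± 0.08 in siUBE2M (adjusted p = 0.0278) and -0.09 ± 0.09 in siURM1 (adjusted p = 0.497). Neither call against control held throughout. That in siNAE1 was lost without control replicate 1 or 3 or siNAE1 replicate 1 (adjusted p of 0.06, 0.098 and 0.084) and with total count scaling (0.11, adjusted p = 0.28), and that in siUBE2M without control replicate 2 (-0.147) or siUBE2M replicate 1 or 2 (adjusted p of 0.23, 0.14 and 0.054) and with no filter on low counts (-0.223, adjusted p = 0.062). The difference between both knockdowns was larger and held whichever library was left out, at 0.46 ± 0.09 (adjusted p = 3.88e-05, lowest 0.416). Against siURM1, siNAE1 was higher by 0.32 ± 0.09 (adjusted p = 0.00725), a call lost without siURM1 replicate 1 (adjusted p = 0.097).

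DCUN1D3, which carries a lipid anchor and is found at the plasma membrane, had the lowest level per length (FPKM) of the 10 genes in every group, and 109 to 189 counts per library. It was at 7.37, 7.81 and 8.64 CPM in control, 11.3, 9.79 and 9.78 in siNAE1, 8.69, 8.52 and 8.22 in siUBE2M, and 10.9 and 13.1 in siURM1. The siNAE1 and siURM1 libraries lay above every control library, and siUBE2M overlapped control. In siURM1 the log2 fold change was 0.59 ± 0.15 (adjusted p = 0.00196), and without siURM1 replicate 2 it was 0.456 with an adjusted p of 0.065. In siNAE1 it was 0.37 ± 0.14 (adjusted p = 0.0247), a call lost without control replicate 1 or 2 or siNAE1 replicate 1 (adjusted p of 0.092, 0.062 and 0.11) and also in DESeq2 (0.367, adjusted p = 0.078), with no filter on low counts (0.379, adjusted p = 0.055) and with total count scaling (0.251, adjusted p = 0.14). In siUBE2M it was 0.09 ± 0.14 (adjusted p = 0.62). The level in siUBE2M was lower than in siURM1 by 0.50 on the log2 scale (-0.50 ± 0.15, adjusted p = 0.0109), a call lost without siURM1 replicate 2 (-0.361, adjusted p = 0.17). That call was also lost with limma on log2(FPKM + 1) (-0.307, adjusted p = 0.074) and on log2(FPKM + 0.1) (-0.469, adjusted p = 0.06). Of its MANE Select transcript, 146 bases are also exonic in ERI2 on the same strand and 155 in LYRM1 on the opposite strand. Both of those genes were called lower in all 3 knockdowns, ERI2 at -0.976, -0.405 and -0.44 and LYRM1 at -1.31, -0.875 and -0.377, whereas the DCUN1D3 value was above 0 in all 3.

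DCUN1D4 fell in the E1 and E2 knockdowns by amounts that the test did not separate. It was at 81.7, 85.2 and 88.8 CPM in control, 58.8, 67.0 and 68.8 in siNAE1, 66.9, 66.4 and 64.7 in siUBE2M, and 74.8 and 76.9 in siURM1. Every knockdown library lay below every control library, with siURM1 between the others and control. The log2 fold change was -0.39 ± 0.07 in siNAE1 (adjusted p = 2.43e-05) and -0.37 ± 0.07 in siUBE2M (adjusted p = 7.86e-05), and neither call was lost without any 1 library. The difference between them was -0.02, with a 95% interval of -0.175 to 0.125. In siURM1 it was -0.17 ± 0.08, which was not called (adjusted p = 0.0897), but it passed the threshold with total count scaling (-0.258, adjusted p = 0.008) and with at least 10 counts in every library (-0.193, adjusted p = 0.041). The difference between siNAE1 and siURM1 was called at -0.23 ± 0.08 (adjusted p = 0.0261), a call lost without siNAE1 replicate 1 (-0.16) or either siURM1 library. With limma it lay at the threshold and was not called, on log2(FPKM + 1) (-0.213, adjusted p = 0.05) or on log2(FPKM + 0.1) (-0.234, adjusted p = 0.053). The difference between siUBE2M and siURM1 lay at the threshold and was not called (-0.20, adjusted p = 0.0504). It was called in DESeq2 (adjusted p = 0.044), with RLE normalization (0.047), with the replicate block (0.041) and with readthrough genes and pseudogenes added (0.046). It was also called without siNAE1 replicate 1 or 3 (0.04 and 0.033) or control replicate 3 (just under 0.05).

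DCUN1D5, the smallest protein of the family and largely nuclear, was called higher in siUBE2M. It was at 67.2, 82.3 and 77.9 CPM in control, the widest control spread of the family, and at 82.7, 83.6 and 85.8 in siNAE1, 83.1, 87.9 and 98.0 in siUBE2M and 79.5 and 87.55 in siURM1. The siNAE1 and siUBE2M libraries lay above control, and siURM1 overlapped it. The log2 fold change was 0.24 ± 0.08 in siUBE2M (adjusted p = 0.0105), a call lost without control replicate 1 (0.169) or siUBE2M replicate 3 (0.175). In siNAE1 it was 0.15 ± 0.08 (adjusted p = 0.107), called without control replicate 2 (0.214, adjusted p = 0.039), and in siURM1 0.14 ± 0.09 (adjusted p = 0.203).

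Summed over the family, the FPKM of the DCUN1D genes was 68.6 ± 5.76 in control, 72.4 ± 0.751 in siNAE1, 72.9 ± 4.51 in siUBE2M and 71.5 ± 4.31 in siURM1, and the ranges of siUBE2M and siURM1 overlapped that of control, as did that of siNAE1 (72.0 to 73.3 against 62.3 to 73.6). DCUN1D5 held 64.4% ± 1.57 of the sum in control, 67.3% ± 0.651 in siNAE1, 71.4% ± 1.84 in siUBE2M and 68.2% ± 0.566 in siURM1. DCUN1D4 held 16.2% ± 0.985 in control, 11.6% ± 0.839 in siNAE1, 11.8% ± 0.907 in siUBE2M and 13.8% ± 0.566 in siURM1. The ranges of both shares in each knockdown lay outside the control range, upward for DCUN1D5 and downward for DCUN1D4, and these shares were not tested. The shares rest on the listed gene lengths, of which that of DCUN1D5 is uncertain.

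**Figure D3:**
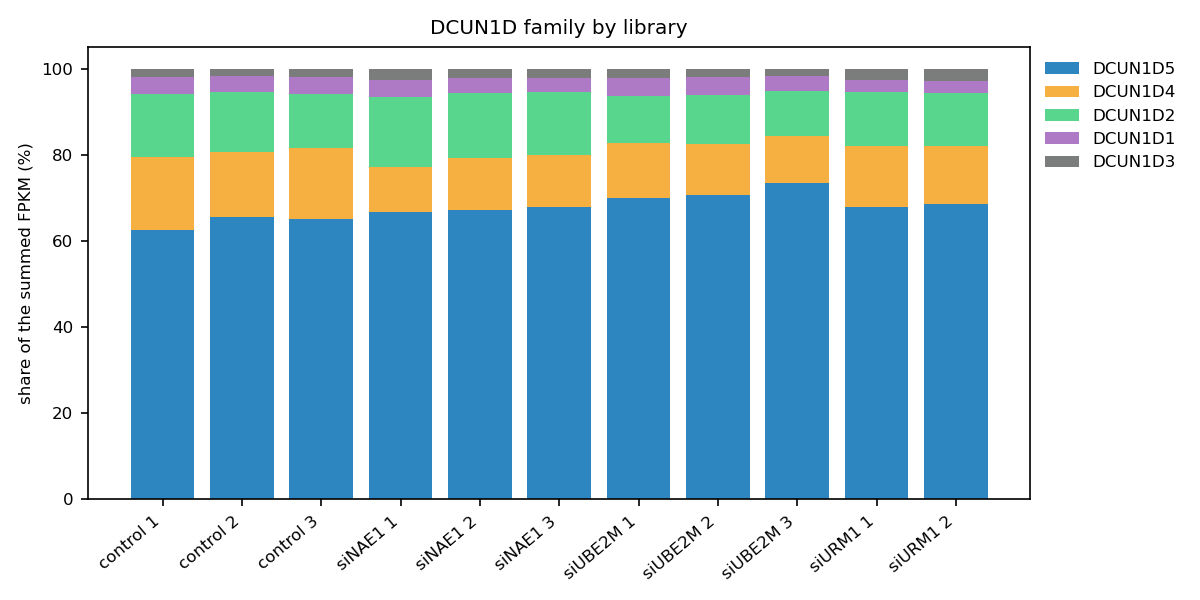
Share of the summed FPKM of the DCUN1D family (vertical axis, %) held by each of the 5 genes in each of the 11 libraries. DCUN1D5 holds 62.6% to 65.5% in control and 66.7% to 73.5% in the knockdown libraries, and DCUN1D4 holds 15.1% to 17.0% in control and 10.6% to 14.2% in the knockdown libraries.

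Levels per length differed widely within the cascade. In control cells UBE2M stood at 143 ± 2.12 FPKM (SD, n = 3), above 99.0% of tested genes, followed by DCUN1D5 at 44.2 ± 4.74, NAE1 at 21.1 ± 1.3 and UBA3 at 18.2 ± 0.723. DCUN1D4 (11.1 ± 0.502), DCUN1D2 (9.4 ± 0.861) and NEDD8 (8.77 ± 0.228) came next, then UBE2F (3.44 ± 0.456), DCUN1D1 (2.62 ± 0.133) and DCUN1D3 (1.26 ± 0.106), the last above 29.1% of tested genes. Ranges over control libraries were separate for each pair of neighbours in this order except DCUN1D2 and NEDD8. In siUBE2M, UBE2M dropped to the fifth place at 9.05 ± 1.12 FPKM, where its range overlapped that of DCUN1D4. In siNAE1, NAE1 dropped to 8.16 ± 0.826 FPKM, overlapping DCUN1D4, and NEDD8 at 13.5 to 16.3 moved ahead of DCUN1D2. In siURM1 the first 4 places were those of control.

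The order depends on the listed length of each gene, which was 3879 bases for NEDD8, 6.3 times the 616 bases of its MANE Select transcript in GENCODE v44. With MANE Select lengths, NEDD8 in control went from 8.77 to 55.2 ± 1.44 FPKM, level with NAE1 (56.0 ± 3.45) and behind UBE2M (226 ± 3.33). For DCUN1D5 the listed length of 1700 bases is shorter than the MANE Select transcript of 12675 bases, so fragments on the rest of that transcript may not have been counted, and no such level was computed. The fold changes above do not depend on these lengths.

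**Figure D4:**
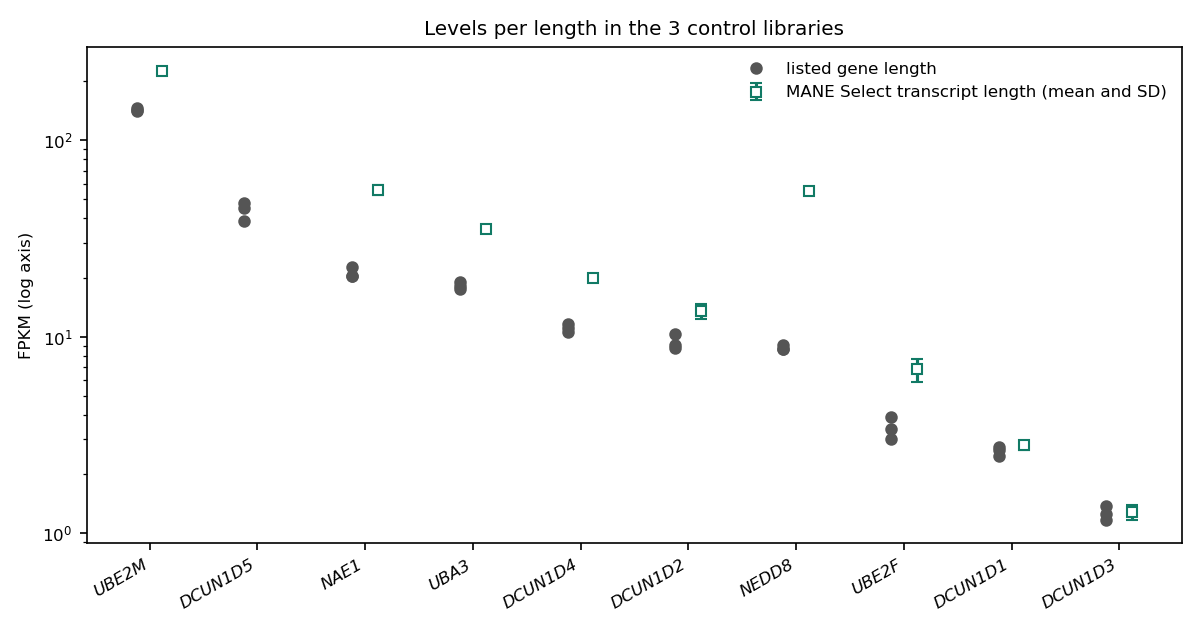
FPKM (log axis) in the 3 control libraries, as points for the listed gene length and as open squares with the mean and SD for the MANE Select transcript length, which was not applied to DCUN1D5. UBE2M is highest on either length (143 and 226 FPKM), and NEDD8 moves from 8.77 to 55.2 FPKM.

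Between knockdowns, 3 of 8 genes not targeted were called for siNAE1 against siUBE2M (44.3% of all genes), 6 of 9 for siNAE1 against siURM1 (38.6% of all genes) and 2 of 9 for siUBE2M against siURM1 (35% of all genes). The calls of the first were NEDD8 and DCUN1D2, higher in siNAE1, and UBA3, lower in siNAE1. The second held NEDD8, UBE2M, DCUN1D1 and DCUN1D2, higher in siNAE1, and UBA3 and DCUN1D4, lower in siNAE1, and 1 call was left without siURM1 replicate 1. The third held DCUN1D1, higher in siUBE2M, and DCUN1D3, lower in siUBE2M.

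A list of 32 partners of the cascade, comprising cullins, other E3 ligases, proteins that remove NEDD8, and readers and regulators of neddylated cullins, held 7 higher and 13 lower calls in siNAE1, 6 and 13 in siUBE2M and 5 and 11 in siURM1. Over all genes, 27.6% were higher and 27.1% lower in siNAE1, 22.7% and 22.6% in siUBE2M, and 20.8% and 20.8% in siURM1, and the list was not tested against these shares. The median log2 fold change of the list was -0.11, -0.12 and -0.08 in that order, beside -0.0021, 0.00747 and -0.0209 over all genes. Of the 8 cullins, 4, 3 and 3 were called, all lower, beside 54.7%, 45.3% and 41.6% of all genes called in either direction. Of the list, SENP8, the protease that matures NEDD8 and removes it from proteins other than cullins, was a DEG in siNAE1. It was at 11.05, 12.3 and 13.0 CPM in control and 4.46, 4.54 and 3.77 in siNAE1, without overlap, and its log2 fold change was -1.50 in siNAE1 (adjusted p = 2.1e-09), -0.70 in siUBE2M and -0.67 in siURM1. The atypical cullin CUL9 was a DEG in siNAE1 (-1.11, adjusted p = 8.6e-12), at 24.5 to 28.2 CPM against 55.7 to 58.6 in control. CUL9 was also called lower in siUBE2M (-0.43, adjusted p = 0.00016) and siURM1 (-0.72, adjusted p = 6.6e-07). COMMD1, which binds cullins and competes with CAND1, was a DEG in siUBE2M (-1.02, adjusted p = 4.5e-06), at 4.2 to 5.76 CPM against 9.29 to 11.2 in control. COMMD1 was also called lower in siNAE1 (-0.45, adjusted p = 0.015) but was not called in siURM1 (-0.40, adjusted p = 0.064).

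A second list held 27 enzymes and modifiers of other ubiquitin-like cascades (ubiquitin E1, SUMO, UFM1, ISG15, ATG8 and ATG12, and URM1), of which 26 counted in siURM1, where URM1 is targeted. It held 6 higher and 6 lower calls in siNAE1 (median log2 fold change 0.04), 4 and 10 in siUBE2M (-0.14) and 6 and 8 in siURM1 (0.02), beside 54.7%, 45.3% and 41.6% of all genes called in either direction, and was not tested against these shares. The modifier UFM1 and its E3 ligase UFL1 were DEGs in siNAE1, at -1.17 (adjusted p = 1.9e-14) and -1.21 (adjusted p = 5.3e-12), and were called lower in the other knockdowns too. ISG15, an interferon-induced modifier, was a DEG in siNAE1 (-1.20, adjusted p = 1.2e-09) and siURM1 (-1.33, adjusted p = 4.5e-09) and was called lower in siUBE2M (-0.70). ATG10, the E2 for ATG12, was a DEG in siNAE1 (-1.09, adjusted p = 1.2e-06). ATG10 was also called lower in siUBE2M (-0.52, adjusted p = 0.006) and siURM1 (-0.90, adjusted p = 0.00012). UBA7, the E1 for ISG15, was a DEG in siUBE2M in the other direction (1.35, adjusted p = 0.00092), from 9 to 31 counts per control library. UBA7 was also called higher in siURM1 (0.95, adjusted p = 0.034) but was not called in siNAE1 (0.54, adjusted p = 0.2).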

How the data were processed

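Poly(A) RNA was sequenced as strand-specific, paired-end libraries. The authors used fastp for trimming, HISAT2 2.0.5 for alignment to GRCh38 and featureCounts 1.5.0-p3 for counting fragments per gene. The deposited counts are raw whole numbers, and the deposited FPKM values are those counts per listed length and library size. Neither the annotation release nor the strand setting is given in the sources used here, so overlapping genes on opposite strands may share fragments.

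The test was that of edgeR 4.0.16 under R 4.3.3 (filterByExpr, TMM, one quasi-likelihood fit of 4 groups, Benjamini-Hochberg adjustment over 18368 genes), which was tested on simulated data. Standard errors were derived from the fold change and the F statistic. The 95% intervals used the total degrees of freedom, which add those borrowed across genes to the residual ones. The named genes were the 10 of the cascade, genes that overlap them or carry their symbol, URM1, DEGs of the 2 lists (partners of the cascade, and other ubiquitin-like cascades), and the gene nearest in its changes to NEDD8, UBA3 and UBE2F. Genes and lists were chosen with earlier results of these data known. Transcripts of GENCODE v44 and promoters of RefSeq were used. Alternatives were DESeq2 1.42.0, RLE normalization, no filter, 2 groups per fit, a minimum of 10 counts in each library, the replicate number as a block, limma 3.58.1 on log2 FPKM with a pseudocount of 1 or 0.1 or an FPKM of at least 1 in 2 libraries, readthrough genes and pseudogenes added, the DEG threshold, and leaving out each library. Scaling by total counts and the MANE Select lengths were chosen after seeing the data. Of 55 pairs of libraries, 0 were identical. No column was left unused. Python 3.11.15 with pandas 2.3.3 and matplotlib 3.10.9 drew the figures.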

Additional observations from a re-analysis of the deposited data

How the results depend on the processing

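With a log2 fold change of at least 1 also required, 0 genes not targeted were called in each of the 6 comparisons. With limma on log2(FPKM + 1) or log2(FPKM + 0.1), siNAE1 against siURM1 had 3 calls and siUBE2M against siURM1 had 1. Leaving out each library gave 3 to 6 calls for siNAE1 against control, 6 to 7 for siUBE2M, 4 to 7 for siURM1, 3 to 3 for siNAE1 against siUBE2M, 1 to 6 for siNAE1 against siURM1 and 1 to 3 for siUBE2M against siURM1. The low counts were 3 without control replicate 1 or siNAE1 replicate 1 in the first, 1 without siURM1 replicate 1 in the fifth, and 1 without siURM1 replicate 2 in the last. Scaling by total counts shifted the median log2 fold change of all genes to -0.127, -0.0498 and -0.111 in siNAE1, siUBE2M and siURM1, and the share of calls that were higher from 50.5% to 38.3%, from 50.1% to 41.8% and from 50% to 38.5%. It gave 4, 7 and 7 calls against control, and DCUN1D2 (0.11) and DCUN1D3 (0.251) were no longer called in siNAE1.

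The values that changed sign were near 0 and not called. With total counts, UBA3 (-0.0736) and DCUN1D1 (-0.0872) in siNAE1 turned. DCUN1D5 in siNAE1 against siURM1 turned with total counts (-0.0258), 2 groups per fit (-0.00371), the replicate block (-0.0237) and added readthrough genes (-0.000772), and UBE2F in siNAE1 against siUBE2M with added readthrough genes and pseudogenes (0.0375). Leaving out a library gave -0.0461 to 0.1 for DCUN1D1 and -0.0181 to 0.0958 for UBA3 in siNAE1, -0.0618 to 0.0773 for DCUN1D5 in siNAE1 against siURM1, -0.0575 to 0.0416 for DCUN1D4 and -0.172 to 0.0535 for UBE2F in siNAE1 against siUBE2M, and -0.0888 to 0.233 for NEDD8 in siUBE2M against siURM1. The causes were not tested. Libraries with the same replicate number did not deviate together over all genes (15 pairs, r from -0.0657 to 0.0787). A pairing of small effect could be missed, and the 2 siURM1 libraries deviate as mirror images by construction, so this check cannot exclude pairing. The replicate block gave 6, 7 and 6 calls against control and 3, 5 and 3 between knockdowns. Over single genes, other settings kept 614 values on their side of the threshold, weakened 31 and strengthened 8, and leaving out a library kept 608, weakened 34 and strengthened 5. On log2(FPKM + 1), limma did not call UBE2M or DCUN1D3 in siNAE1, DCUN1D2 or DCUN1D5 in siUBE2M, or NEDD8 or DCUN1D1 in siURM1. With 2 libraries in siURM1, 1 library decided several of its calls.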
